A study of Mus musculus with 6 samples.

Results

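The miR-132 and miR-212 cluster is a pair of neighbouring microRNA genes that yield 4 mature microRNAs (miRNAs), mmu-miR-132-3p, mmu-miR-132-5p, mmu-miR-212-3p and mmu-miR-212-5p, written below without the species prefix. Array probes were taken where the systematic name in the scanner files equalled 1 of these 4 names, which gave 4 of 1881 mouse miRNAs, 8 of 4415 probes and 120 of 56430 spots on each array. Each member has 2 probes, and each probe is printed in 15 spots. The 4 members also have a row each in the deposited value table of 1902 rows.

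The tissue was the left ventricle. One group of 3 samples came from male C57BL/6 mice given sunitinib, a tyrosine kinase inhibitor used against cancer, and the other, of 3, from mice of the same strain and sex given vehicle as the control. Total RNA (200 ng per sample) was labelled with Cy3 and each sample was hybridised alone to an Agilent mouse miRNA array. The sources used here do not give the dose, the length of treatment or the age. No label ties a sample to 1 mouse, and the p-values thus cover no more than the spread among these samples, which could be technical. The series title asks about miR-146a in heart dysfunction under sunitinib, and the comparison of sunitinib with control hearts is read here for the miR-132 and miR-212 cluster.

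Both genes lie in 1 stretch of the genome and are known to be processed from a shared primary transcript, whose transcription the factor CREB can induce. In mouse heart muscle cells miR-132 and miR-212 are known to promote hypertrophic growth and to repress Foxo3, a transcription factor that drives autophagy genes. miR-132 is also known from endothelial cells, where it represses a Ras inhibitor, and from neurons, where activity induces it.

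A miRNA finds its targets mainly through its seed, bases 2 to 8, so the mature sequences are shown with the seed in capitals (RefSeq, GRCm38.p6, plus strand of chromosome 11, 5′ to 3′). The 2 arms from the 3′ side of the hairpins share their seed, and of 1738 mature mouse miRNAs in the RefSeq table only these 2 have it.
miR-132-3p: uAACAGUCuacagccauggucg
miR-212-3p: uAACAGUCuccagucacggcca
miR-132-5p: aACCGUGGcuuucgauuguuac
miR-212-5p: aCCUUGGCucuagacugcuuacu

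miR-132-3p and miR-212-3p are identical at 17 of 22 positions, and the first 9 bases are the same in both. The 2 arms from the 5′ side have seeds that no other mature miRNA in the table shares, nor do they share one with each other. The hairpins are shown with both arms in capitals, because the arms of a hairpin come from 1 transcript but were not alike in detection.
Mir212, chr11:75173388-75173478 (GRCm38.p6, plus strand): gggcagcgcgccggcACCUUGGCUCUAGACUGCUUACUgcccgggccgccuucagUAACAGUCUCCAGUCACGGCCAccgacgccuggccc
Mir132, chr11:75173682-75173747 (GRCm38.p6, plus strand): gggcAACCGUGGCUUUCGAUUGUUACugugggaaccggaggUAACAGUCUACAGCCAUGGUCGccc

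The hairpins are 203 bases apart, with Mir212 first, and no other gene of the RefSeq table overlaps them. The nearest genes are Hic1 on the near side and Ovca2 on the far side.

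Whether the arrays can tell the 2 arms with a shared seed apart depends on where the probes bind, so the 4 probes are shown 5′ to 3′ with capitals at each base that is not the Watson-Crick complement of the other miRNA's base.
miR-132-3p, A_54_P1054: CgAccAtgGctgTaga
miR-132-3p, A_54_P1055: CgAccAtgGctgTag
miR-212-3p, A_54_P2617: TgGccGtgActgGa
miR-212-3p, A_54_P2616: TgGccGtgActgG

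The probes for miR-132-3p cover bases 7 to 22 (A_54_P1054, 16 bases) and 8 to 22 (A_54_P1055, 15 bases), and those for miR-212-3p cover bases 9 to 22 (A_54_P2617, 14 bases) and 10 to 22 (A_54_P2616, 13 bases). All 5 positions at which the miRNAs differ lie under all 4 probes. None of the 4 probes has a full match in another of the 1738 mature miRNAs. How far a probe also binds the other miRNA was not measured. The files map A_54_P1054 to chr11:74987232-74987246 and A_54_P2617 to chr11:74986954-74986966 (mm9). The probes of miR-212-5p have no position in the files.

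All 6 arrays lay on 1 slide, no spot was saturated, and 234 to 252 miRNAs per array were well above background, which the file headers set at 13 background SDs. The heart muscle miRNAs miR-1a-3p, miR-133a-3p, miR-208a-3p and miR-499-5p were well above background on all 6 arrays, the liver miRNA miR-122-5p on none, and of 10 neuronal miRNAs 8 were on none.

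The arms from the 3′ side were detected in the left ventricle and those from the 5′ side were not. miR-132-5p was well above background in 0 of 175 usable spots over its 2 probes and 6 arrays, which allows a share of up to 1.71% of spots. miR-212-5p was so in 0 of 177 spots, which allows up to 1.69%. These limits cover counting error only and treat the spots as independent, although the spots of an array share an RNA sample. miR-132-3p was well above background in 161 of 178 spots and miR-212-3p in 114 of 177.

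On the log2 scale the lowest signal of any probe that was well above background on an array was 3.18 to 3.62. miR-132-5p read 0.00 to 0.36 in sunitinib hearts and 0.00 to 0.45 in control hearts, and miR-212-5p 0.00 to 1.17 in sunitinib hearts and 0.29 to 0.99 in control hearts. The groups overlapped for all 4 probes of these arms, whose values lie near the floor of 0 set for the signal and carry no order. No change was tested for them.

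**Figure D1:**
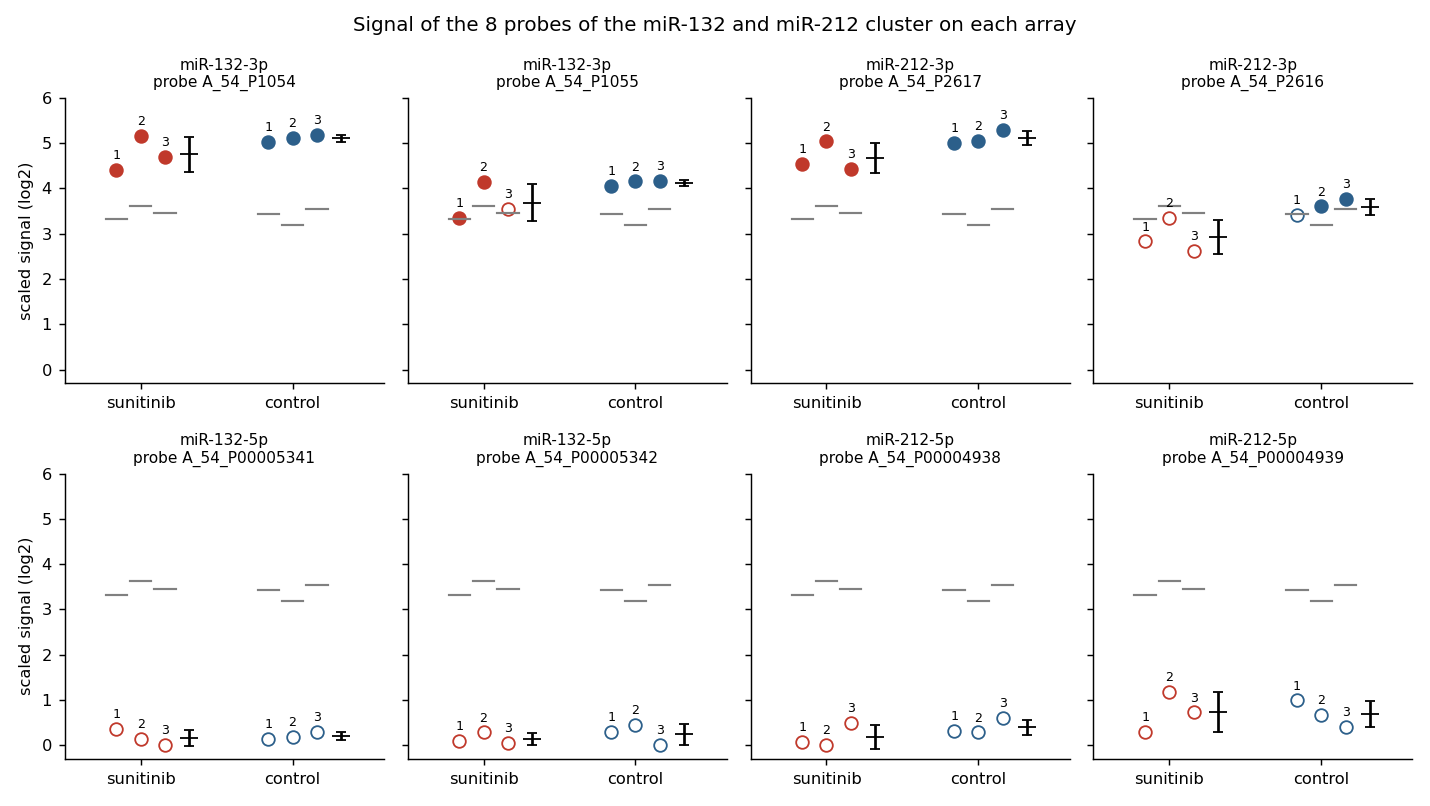
Scaled signal (log2) of each of the 8 probes, with sunitinib arrays on the left and control arrays on the right of each panel and the replicate number above each point. Filled points were well above background, open points were not, grey ticks give the lowest signal well above background on that array, and black bars are the mean and SD of 3 arrays. The brighter probes of miR-132-3p and miR-212-3p read low in sunitinib replicates 1 and 3 and near the controls in replicate 2. All 4 probes of the 5′ arms read at most 1.17.

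miR-132-3p was lower in sunitinib hearts on average, but not past the test. Its brighter probe, A_54_P1054, which stands for the miRNA below, read 4.41, 5.17 and 4.70 in sunitinib replicates 1 to 3, against 5.03, 5.12 and 5.18 in control replicates 1 to 3. Sunitinib replicates 1 and 3 lay below every control array, while sunitinib replicate 2 lay within the control range, so the groups overlapped. The means were 4.76 ± 0.38 in sunitinib and 5.11 ± 0.08 in control (SD, n = 3 each), a log2 change of -0.35 (SE 0.19, 95% interval -0.81 to 0.10), or 1.28-fold lower. The limma adjusted p over the 237 tested miRNAs was 0.36.

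miR-212-3p, which shares the seed, was also lower on average without passing. Its brighter probe, A_54_P2617, read 4.54, 5.04 and 4.44 in sunitinib replicates 1 to 3, against 5.01, 5.06 and 5.29 in control replicates 1 to 3. Sunitinib replicates 1 and 3 were again below every control array, and replicate 2 lay between control replicates 1 and 2. The means were 4.67 ± 0.32 in sunitinib and 5.12 ± 0.15 in control (SD, n = 3 each), a log2 change of -0.45 (SE 0.17, 95% interval -0.86 to -0.03, not corrected for multiple tests), or 1.36-fold lower. The unadjusted limma p was 0.040 and the adjusted p 0.25, so the change did not pass a threshold of 0.05.

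Thus 0 of the 2 detected members passed in either direction, where 3.38% of the tested miRNAs did (4 higher and 4 lower of 237, or 0 and 4 with quantile normalization and 1 and 3 without scaling). At an unadjusted p under 0.05, 1 of the 2 was lower, as were 8.44% of the tested miRNAs. Every sunitinib array lay below every control array for 0 of the 2 and for 9.28% of the tested miRNAs, and the groups did not overlap in either direction for 27.4%. In bulk tissue, fewer cells that make a miRNA and less of it per cell cannot be told apart.

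**Figure D2:**
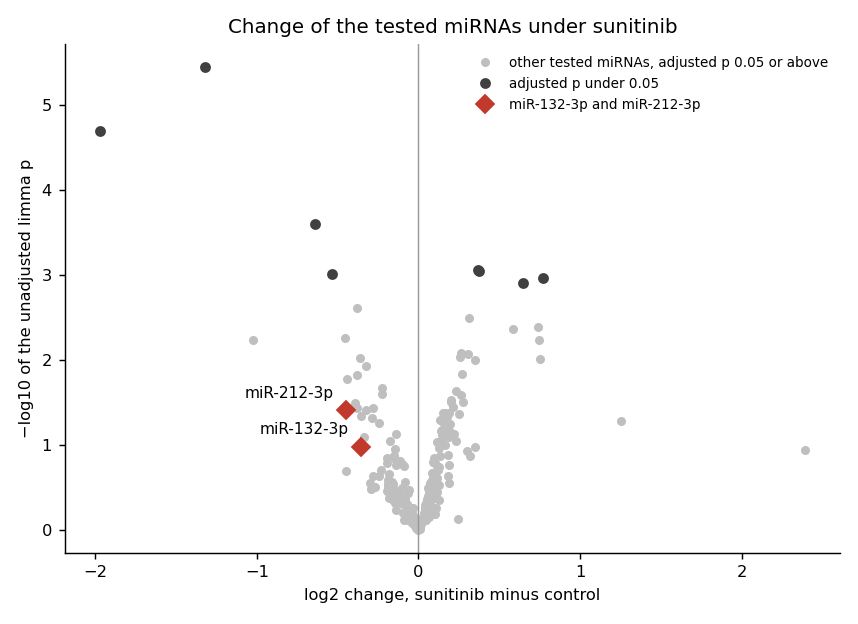
Log2 change (sunitinib minus control, x axis) against the −log10 of the unadjusted limma p (y axis) for the 237 tested miRNAs. Dark points are the 8 miRNAs with an adjusted p under 0.05, and red diamonds are miR-132-3p at -0.35 and miR-212-3p at -0.45, which lie on the lower side without passing.

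The dimmer probe of miR-132-3p, A_54_P1055, ordered the sunitinib arrays as the brighter one did, with replicate 2 the highest. It read 3.36, 4.14 and 3.55 in sunitinib replicates 1 to 3, against 4.05, 4.16 and 4.16 in control replicates 1 to 3. All 15 spots were well above background on each control array, but 9, 14 and 5 of 15 in sunitinib replicates 1 to 3, so the probe counted as detected on 2 of 3 sunitinib arrays. The groups overlapped because sunitinib replicate 2 lay above control replicate 1. The probe entered the test through the control arrays alone, so its log2 change of -0.44 (-0.38 with signals under 10 set to 10) is a description and not support.

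For miR-212-3p, A_54_P2616 read 2.83, 3.35 and 2.62 in sunitinib replicates 1 to 3, against 3.42, 3.61 and 3.77 in control replicates 1 to 3. No sunitinib array and 2 of 3 control arrays had it well above background, and it therefore entered no test. The measured means were 2.93 ± 0.38 in sunitinib and 3.60 ± 0.18 in control (SD, n = 3 each), and no fold or order is drawn from values that 4 of 6 arrays did not detect.

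Of the 2 member probes detected on all 6 arrays, 0 passed, against 3.58% of the 419 tested probes. These calls were 7 higher and 8 lower, or 1 and 6 with quantile normalization and 14 and 8 without scaling. The 419, over which the shares here are given, also hold probes detected on all arrays of only 1 group. With only the 393 probes that every array detected, 6 passed as higher and 5 as lower. The adjusted p from limma was 0.37 for A_54_P1054 and 0.25 for A_54_P2617. At an unadjusted p under 0.05, 1 of these 2, A_54_P2617, was lower, as were 8.11% of the tested probes. Every sunitinib array lay below every control array for neither, and for 10% of the tested probes. Over the 6 arrays the 2 probes of miR-132-3p had a Pearson r of 0.99 with each other. The brighter probes of the 2 miRNAs had 0.90, where binding of a probe to the other miRNA was not measured. The 2 probes of miR-212-3p had 0.98, but most arrays did not detect A_54_P2616. These describe the same 6 RNA samples and arrays, and no p is attached.

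The changes of the 2 miRNAs were set against each other within each array. The log2 value of miR-212-3p minus that of miR-132-3p was 0.13, -0.13 and -0.26 in sunitinib replicates 1 to 3, against -0.03, -0.06 and 0.11 in control replicates 1 to 3. The means were -0.09 ± 0.20 in sunitinib and 0.01 ± 0.09 in control (SD, n = 3 each), so the changes differed by -0.09. An exact two-sided permutation test gave p = 0.5, where 3 against 3 arrays allow no p below 0.1, so a difference between the 2 changes was not shown, nor was it shown that they are alike.

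Both miRNAs varied widely between the sunitinib arrays. The value of an array is a mean over up to 15 spots, whose SD was 0.13 to 0.24 for A_54_P1054 and 0.14 to 0.24 for A_54_P2617. The SE of that mean was 0.034 to 0.061 and 0.036 to 0.063, beside SDs between sunitinib arrays of 0.38 and 0.32. For miR-132-3p the sunitinib SD was 5.03 times the control SD, and for miR-212-3p 2.10 times. The share of tested miRNAs with ratios as large was not counted. Such ratios are not particular to the members, since miR-150-5p had SDs of 0.38 in sunitinib and 0.03 in control. Among the 237 tested miRNAs these sunitinib SDs ranked 23rd and 32nd from the highest, and among 44 other miRNAs of similar signal (mean log2 4.5 to 5.5) the median sunitinib SD was 0.16 and the median control SD 0.10, with 9 of the 44 above miR-132-3p and 13 above miR-212-3p.

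**Figure D3:**
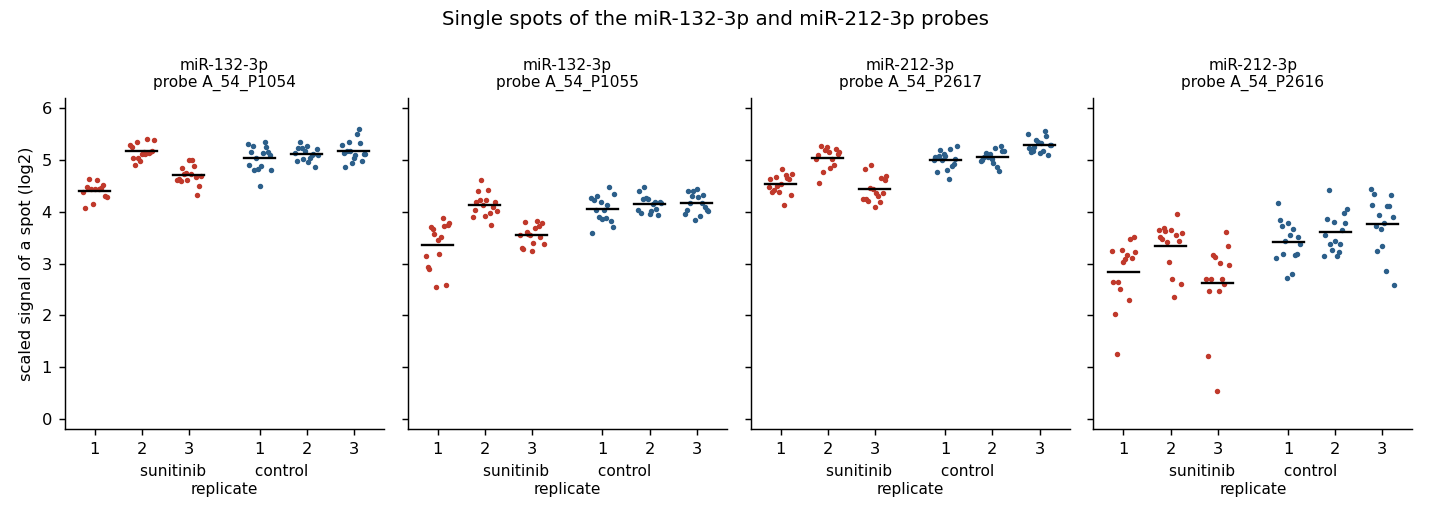
Scaled signal (log2) of each usable spot of the 4 probes of miR-132-3p and miR-212-3p, by array, with sunitinib arrays left of control arrays and a black line at each array's mean. Spots of the brighter probes lie close together within an array, and their means are the lowest in sunitinib replicates 1 and 3.

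Against the control mean, miR-132-3p was at -0.71, 0.06 and -0.41 in sunitinib replicates 1 to 3 and miR-212-3p at -0.58, -0.08 and -0.68. Sunitinib replicate 2 was thus the array nearest to control for both. Among the 8 miRNAs that passed, replicate 2 had the smallest shift of the 3 sunitinib arrays for 0 of 8. Those 8 were called in part because their arrays agree, so no contrast with the members is drawn from this count. Without sunitinib replicate 2 miR-212-3p was at -0.60 and passed (limma adjusted p = 0.040), and miR-132-3p was at -0.53 and did not (limma adjusted p = 0.056). That was 1 of the 2 members, where 7.02% of 242 tested miRNAs passed in either direction and 2.07% as lower. Leaving out the array nearest to control for the members enlarges their changes by construction. The other miRNAs did not each lose their own nearest array, so these shares are no like comparison. Of the 2 member probes detected on all 6 arrays, A_54_P2617 passed there as lower (limma adjusted p = 0.035) and A_54_P1054 did not pass (limma adjusted p = 0.054). Of all tested probes, which include those detected in only 1 group, 2.34% passed as lower. Without sunitinib replicate 1 the change of miR-132-3p was only -0.15 and that of miR-212-3p -0.35, and neither passed.

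Position on the slide moved with the groups: sunitinib replicates 1 and 2 lay in slide row 1, and sunitinib replicate 3 lay in row 2 with all 3 controls. A fit with a term for the slide row gave changes of -0.41 for miR-132-3p (limma adjusted p = 0.76) and -0.68 for miR-212-3p (limma adjusted p = 0.51). Within row 2 alone, fitted with the lone sunitinib array assumed to vary like the controls, they were -0.38 (limma adjusted p = 0.18) and -0.65 (limma adjusted p = 0.073). Row 1 holds no control, so both fits rest on sunitinib replicate 3 alone, and the part of slide position in these values was not tested.

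The deposited value table, whose centring by the authors is not recorded in the labels or headers, also had sunitinib replicate 2 as the highest sunitinib array. miR-132-3p stood at 4.21, 4.64 and 4.20 in sunitinib replicates 1 to 3, against 4.60, 4.60 and 4.66 in control replicates 1 to 3 (log2). miR-212-3p stood at 4.06, 4.322 and 3.71 in sunitinib replicates 1 to 3, against 4.329, 4.39 and 4.58 in control replicates 1 to 3. Its groups just failed to overlap here, at 4.322 against 4.329. The share of all miRNAs for which this holds in the deposited values was not counted, so nothing is drawn from it. In the scanner values every sunitinib array lay below every control array for 9.28% of the tested miRNAs. The deposited changes of -0.27 for miR-132-3p and -0.40 for miR-212-3p did not pass (limma adjusted p = 0.30 and 0.24). The arms from the 5′ side were at 2.10 to 2.28 in that table, close to the column medians of 2.195 to 2.200.

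**Figure D4:**
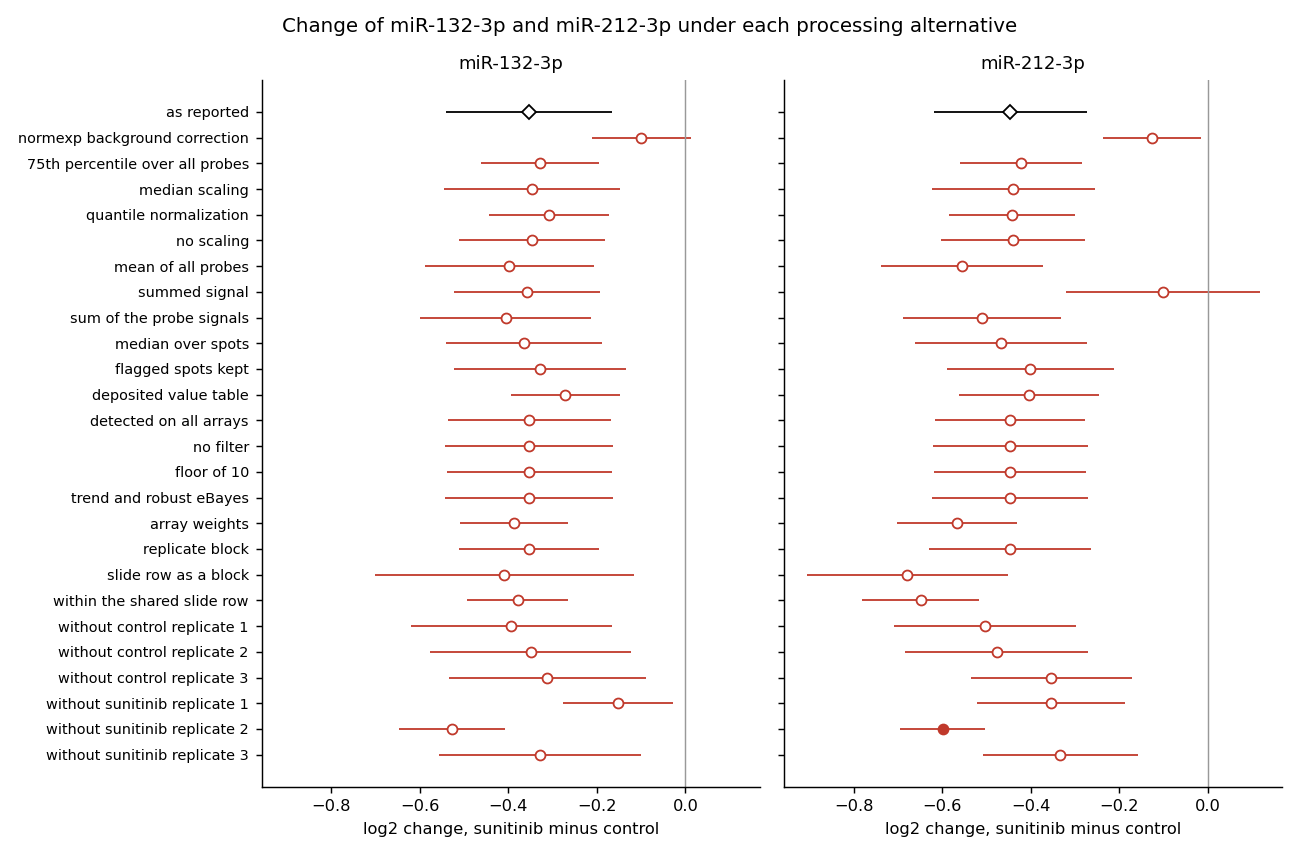
Log2 change (sunitinib minus control, x axis) of miR-132-3p and miR-212-3p under each way of processing, with the value as reported at the top as a diamond and horizontal bars for the SE. Filled symbols have a limma adjusted p under 0.05, which holds only for miR-212-3p without sunitinib replicate 2. Every value lies below 0, from -0.53 to -0.10 for miR-132-3p and from -0.68 to -0.10 for miR-212-3p.

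The miRNAs whose values followed the members most closely over the 6 arrays did not pass either. For miR-132-3p these were miR-7686-5p, miR-6937-5p, miR-6965-5p and miR-3968, with Pearson r of 0.99, 0.98, 0.95 and 0.94 and log2 changes of -0.19, -0.20, -0.20 and -0.34. For miR-212-3p they were miR-5100, miR-652-5p, miR-3968 and miR-7686-5p, with r of 0.96, 0.96, 0.93 and 0.92, and log2 changes of -0.44 for miR-5100 and -0.29 for miR-652-5p. miR-212-3p ranked 19th for miR-132-3p, and miR-132-3p ranked 6th for miR-212-3p. These correlations are over 6 arrays that share the scaling and the split into groups.

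Of 20 miRNAs linked to cardiac hypertrophy, among them the 2 members, none passed in either direction, 11 lay above 0 and 9 below, and the median log2 change was 0.02, or 0.03 over the other 18, beside a median of 0.02 over all tested miRNAs. miR-155-5p, an inflammatory miRNA, was at 0.15 (SE 0.06, limma adjusted p = 0.25). miR-208b-3p, encoded within the myosin gene Myh7, was at 1.25 (SE 0.53, limma adjusted p = 0.26). Of 12 tested miRNAs known to restrain hypertrophy none passed, with a median of 0.08, and miR-29a-3p, which represses collagen genes, was at 0.26 and miR-145a-5p, a smooth muscle miRNA, at -0.23 (limma adjusted p = 0.21 for each).

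Among 10 endothelial and angiogenic miRNAs, which include miR-132-3p, 1 rose, the hypoxia-responsive miR-210-3p (0.37, SE 0.06, limma adjusted p = 0.037), as did 1.69% of all tested miRNAs, and 9 did not pass, with a median of -9.9e-05. The call of miR-210-3p was lost in 16 of 25 alternatives, among them quantile normalization, the slide row as a term and leaving out any 1 control sample (limma adjusted p from 0.025 to 0.37 over the 25). miR-92a-3p of the miR-17 cluster was at 0.30 (limma adjusted p = 0.11). None of the 5 tested miRNAs of NF-kB signalling and innate immunity passed; they include both members, 4 lay below 0 and the median was -0.35, or -0.19 over the other 3. miR-146a-5p, which dampens NF-kB signalling, was at -1.02 (SE 0.25, limma adjusted p = 0.093), and miR-155-5p, given above, was the next by p among the others. Of 10 neuronal miRNAs only 2 were tested and neither passed, miR-219a-5p at -0.25 and miR-128-3p at 0.16 (limma adjusted p = 0.27 and 0.31).

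Of 3 tested leukocyte markers, miR-223-3p (-1.32, limma adjusted p = 0.00086) and miR-142a-3p (-0.64, limma adjusted p = 0.020) fell, where 1.69% of all tested miRNAs were called lower. miR-150-5p, at 0.35, did not pass, while miR-142a-5p was not well above background on any array. miR-223-3p passed in all 25 alternatives, and miR-142a-3p in 14, losing its call in 11, among them the slide row as a term (limma adjusted p = 0.25) and leaving out any 1 control sample. The summed signal of the 4 leukocyte markers was 316 to 393 in sunitinib hearts and 540 to 606 in control hearts and did not overlap, but most of the gap was miR-223-3p, at 120.1 to 132 in sunitinib and 298 to 354 in control hearts. Without it the sums were 184 to 265 in sunitinib and 242 to 252 in control hearts and overlapped. Their part in the values of miR-132-3p and miR-212-3p was not tested. The 4 heart muscle markers did not pass (median 0.04, with miR-133a-3p at 0.11 and miR-1a-3p at 0.06), and their summed signal overlapped, at 89802 to 94385 in sunitinib and 83943 to 92396 in control hearts. The 3 erythroid markers did not pass either (miR-451a at 0.19, miR-144-3p at -0.10), and their summed signal overlapped, at 4498 to 4755 in sunitinib and 3443 to 4972 in control hearts, whose median change was -0.05.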

How the data were processed

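The authors deposited Agilent Feature Extraction files with spot intensity, background-subtracted per the file headers (version 10.7.1.1, or 10.7 in the submitters' processing notes), and a table of log2 values with no record of its making in the labels or headers. The members and lists were chosen with earlier results of these data known.

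Control spots and spots flagged as outliers were left out. Scaling set the 75th percentile equal, taken over 393 probes that every array detected. Scaled signals under 1 were set to 1, and the log2 values of a probe's spots were averaged. A probe counted as detected with at least 50% of its spots well above background. The brightest probe stood for a miRNA, and a miRNA or probe entered the test if all 3 arrays of either group detected it. The difference of sunitinib and control was fitted with limma 3.58.1 (R 4.3.3), adjusted by Benjamini-Hochberg, with calls at an adjusted p under 0.05. Fits were tested on simulated data. Named miRNAs are the 4 members, the 4 most alike to each detected 3′ arm, and the 2 other tested miRNAs with the smallest p in each list. miR-150-5p and miR-142a-5p were named after their values were seen. Sequences are from RefSeq (GRCm38.p6) and the scanner files (mm9). The number of arrays limits the precision.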

Additional observations from a re-analysis of the deposited data

How the results depend on the processing

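Over 25 alternatives both miRNAs stayed below 0, miR-132-3p from -0.53 to -0.10 with 0 passing and miR-212-3p from -0.68 to -0.10 with 1 passing. Some of these, such as no filter or the replicate block, leave the change as it is, and all use the same arrays. Leaving out a sample gave -0.53 to -0.15 for miR-132-3p and -0.60 to -0.33 for miR-212-3p. The latter passed without sunitinib replicate 2, its sunitinib array nearest to control (-0.60, limma adjusted p = 0.040, where all alternatives span 0.040 to 0.94). Under normexp background correction, whose offset of 50 pulls dim probes toward 0 by construction, they were -0.10 and -0.13. The difference between the changes of miR-212-3p and miR-132-3p turned to 0.26 with the scanner software's summed signal, against -0.09, and ran from -0.20 to -0.005 without a sample.

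The 8 miRNAs and 15 probes past the threshold became 4 and 7 with normexp, 4 and 7 with quantile normalization, 13 and 24 under array weights, 3 and 4 when nothing was filtered, 1 and 2 once slide row entered as a block, and 4 and 6 within the shared row. The miRNAs numbered 4 without scaling and 2 with the summed signal. Without a sample they numbered 2 to 17, and the probes 6 to 23: 2 miRNAs without any 1 control, 4 without sunitinib replicate 1 and 17 without sunitinib replicate 2. The deviations of samples that share a replicate number had r of 0.18, 0.22 and -0.06, within the -0.31 to 0.25 of the other pairs. So few values cannot decide whether the numbers pair the samples. With the replicate block 2 miRNAs and 5 probes passed, and miR-132-3p and miR-212-3p each had a limma adjusted p of 0.37. The sum of the probe signals was added after the data were seen.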

Other observations

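The scanner software's summed signal of miR-212-3p went against its own probes on 1 array. In sunitinib replicate 3 it was 12.8, the highest of the 6 arrays, while the software's signals of the 2 probes, 1.44 and 4.61, add up to 6.05, the lowest of the 6. On the other 5 arrays the summed signal equalled the sum of the 2 probes within 1%, at 7.38 and 8.44 in sunitinib replicates 1 and 2 and 10.2, 10.2 and 9.84 in control replicates 1 to 3. For miR-132-3p it did so on all 6 arrays. With the summed signal the log2 change of miR-212-3p was -0.10 (SE 0.22, limma adjusted p = 0.85), and with the sum of the 2 probes it was -0.51 (SE 0.18, limma adjusted p = 0.22). Over the 237 tested miRNAs, 34 to 46 per array had a summed signal that differed from the sum of their probes by more than 1%.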
